A study of Mus musculus with 90 samples.

Results

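The 9 genes described here, Gkn1, Gkn2, Tff1, Muc5ac, Tff2, Muc6, Pgc, Atp4a and Atp4b, encode major products of the glandular stomach epithelium. They were chosen by name from the 20414 genes of the expression table because their levels marked stomach across the 15 tissues and appeared as traces elsewhere, so their levels by tissue are a description and carry no test. RNA-sequencing was performed on 15 tissues of normal female C57BL/6 mice, 10 weeks of age per the labels, without treatment. The study's methods name the strain as C57BL/6J and give another age. The mice were in estrus or in diestrus, told apart by methylene blue staining of vaginal secretions. The study also measured serum estrogen and progesterone in mice to help tell the phases apart. Each tissue and phase had 3 libraries, which gave 90 in all, 6 of them from stomach. Per the study's methods, 3 mice per phase gave every tissue. Values are FPKM, fragments scaled for transcript length and for library size, and so can be set beside each other between genes. In these tissue extracts, fewer cells of a type and less RNA per cell cannot be told apart.

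The glands of the mouse stomach are lined by cells with distinct products. Pit cells cover the surface and secrete gastrokines, the trefoil factor Tff1 and the gel-forming mucin Muc5ac. Mucous neck cells secrete Tff2 and Muc6, which are also known products of the Brunner's glands of the proximal duodenum. Chief cells secrete pepsinogens such as Pgc (progastricsin), the precursor of a protein-digesting enzyme, and parietal cells acidify the lumen with the proton pump made of the catalytic subunit Atp4a and the glycosylated subunit Atp4b. In the order of RefSeq's annotation of GRCm38.p6, Gkn1, Gkn2 and Gkn3 are neighbouring genes on chromosome 6, as are Tff3, Tff2 and Tff1 on chromosome 17 and Muc6, Muc2, Muc5ac and Muc5b on chromosome 7.

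RefSeq promoter windows were at hand for 5 of the 9 genes, at least 1 for each cell source, and are shown because these genes are listed together at high levels in stomach and also in lower, proportional traces elsewhere. Each sequence below is the 250 bases before the annotated start, 5′ to 3′ along the gene, GRCm38.p6. Capitals mark GATAAG, the core recognised by GATA factors, and TATAAA, the core of the basal promoter box, each searched on both strands.
Gkn1 (pit cells; chr6:87350916-87351165, minus strand): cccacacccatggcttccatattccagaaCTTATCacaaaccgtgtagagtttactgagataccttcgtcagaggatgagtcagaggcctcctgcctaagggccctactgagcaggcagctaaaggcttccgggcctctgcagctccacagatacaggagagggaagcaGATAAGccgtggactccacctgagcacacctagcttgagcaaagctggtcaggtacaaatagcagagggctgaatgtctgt
Gkn2 (pit cells; chr6:87373115-87373364, plus strand): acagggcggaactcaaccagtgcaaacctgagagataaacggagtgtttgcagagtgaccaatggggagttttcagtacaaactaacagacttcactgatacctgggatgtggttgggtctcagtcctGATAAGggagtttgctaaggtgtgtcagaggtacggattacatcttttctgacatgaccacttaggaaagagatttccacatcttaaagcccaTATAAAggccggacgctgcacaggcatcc
Muc6 (neck cells; chr7:141655394-141655643, minus strand): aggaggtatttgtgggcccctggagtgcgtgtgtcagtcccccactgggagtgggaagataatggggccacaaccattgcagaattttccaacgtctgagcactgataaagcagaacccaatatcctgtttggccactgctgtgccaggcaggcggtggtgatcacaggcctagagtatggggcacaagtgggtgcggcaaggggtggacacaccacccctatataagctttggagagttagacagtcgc
Pgc (chief cells; chr17:47726592-47726841, plus strand): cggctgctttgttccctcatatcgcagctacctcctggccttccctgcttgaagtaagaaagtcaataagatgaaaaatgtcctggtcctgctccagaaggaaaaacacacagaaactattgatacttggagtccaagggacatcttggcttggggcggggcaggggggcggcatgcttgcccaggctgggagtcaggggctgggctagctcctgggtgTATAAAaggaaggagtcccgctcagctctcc
Atp4a (parietal cells; chr7:30711959-30712208, plus strand): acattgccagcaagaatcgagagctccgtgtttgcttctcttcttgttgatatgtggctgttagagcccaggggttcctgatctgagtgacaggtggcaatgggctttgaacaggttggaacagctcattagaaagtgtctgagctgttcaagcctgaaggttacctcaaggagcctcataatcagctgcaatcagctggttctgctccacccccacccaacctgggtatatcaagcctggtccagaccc
GATAAG was found in 2 of the 5 windows, Gkn1 and Gkn2, and in 6.55% of the 32851 RefSeq windows of the same length. Gkn1 held 2 copies, starting 221 and 81 bases before the start, and Gkn2 held 1 copy at 122 bases. TATAAA was found in Gkn2 and Pgc, 29 and 31 bases before the start, and in 12.4% of all windows. The motifs did not overlap each other, and a match is a description of the letters only.

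Some libraries stood apart from their labels or their group. BAT (brown adipose tissue) estrus replicate 3 listed 12048 genes at 0, against 2404 to 4820 in the other 89 libraries. Duodenum estrus replicate 1 held the pit and neck members at or above their stomach levels and is described with the duodenum. All stomach markers but Cblif were members, chosen for their stomach levels, so their presence is no check of the stomach label. Cblif was at 35.0 to 806 FPKM in the 6 stomach libraries. These libraries differed in other layers of the organ. The summed level of 12 genes of squamous epithelium, which lines the mouse forestomach, was 12274, 376 and 22580 FPKM in estrus replicates 1 to 3 and 2904, 1187 and 214 FPKM in diestrus replicates 1 to 3. That of 7 smooth muscle genes was 6853, 333 and 2330 FPKM in estrus and 1860, 754 and 814 FPKM in diestrus. Estrus replicates 1 and 3 were thus the highest in both lists, and the part of this difference in the levels below was not tested.

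**Figure D1:**
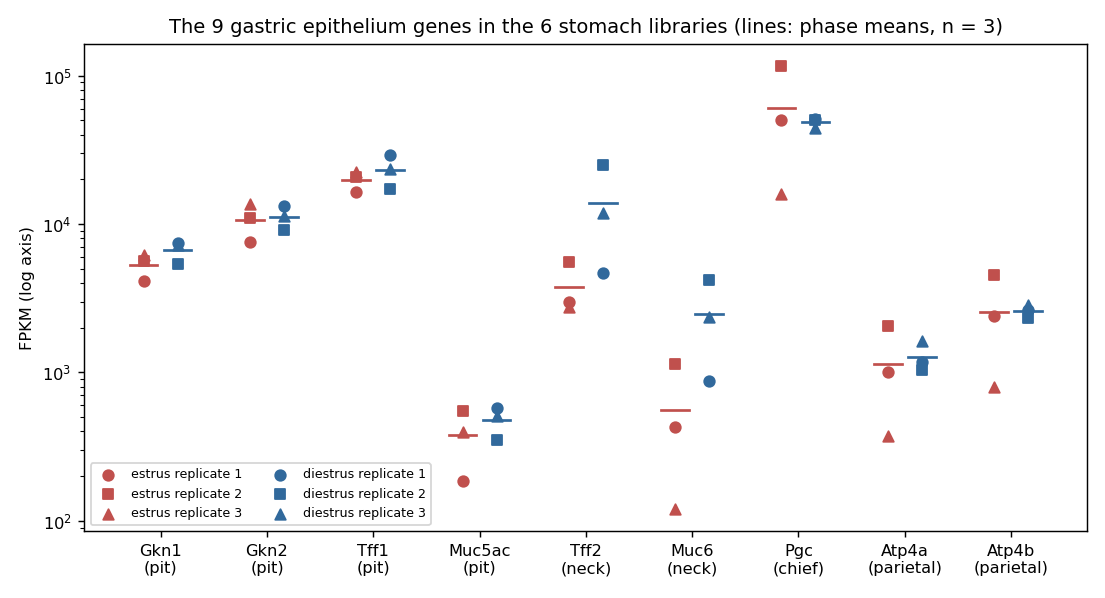
FPKM on a log axis of the 9 genes in the 6 stomach libraries, with estrus in red, diestrus in blue, replicates as symbols and phase means as lines (n = 3). The 4 pit genes spread the least, the neck genes Tff2 and Muc6 spread widely and sit higher in diestrus, and estrus replicate 3 is the lowest for Muc6, Pgc, Atp4a and Atp4b.

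In stomach, the 9 genes made up 10.3% to 26.8% of all FPKM listed per library. Pgc was the most abundant gene of the stomach by mean, and Tff1, Gkn2, Tff2 and Gkn1 ranked 3, 5, 6 and 7. Atp4b ranked 14, Muc6 28, Atp4a 43 and Muc5ac 172.

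The pit genes were the steadiest of the 9. Tff1, a small trefoil peptide secreted with mucus, was at 16531, 20598 and 22385 FPKM in estrus and at 29079, 17171 and 23455 FPKM in diestrus. Gkn2, a gastrokine that associates with Tff1, was at 7606, 11006 and 13558 FPKM in estrus and at 13206, 9100 and 11293 FPKM in diestrus. Gkn1, a secreted gastrokine of the surface mucus, was at 4098, 5601 and 6170 FPKM in estrus and at 7495, 5400 and 7206 FPKM in diestrus. For these 3 genes the highest library was within 1.83 times the lowest, and the phases overlapped. Muc5ac, the mucin of the surface gel, was at 187, 547 and 394 FPKM in estrus and at 580, 352 and 509 FPKM in diestrus, a 3.1-fold range. Gkn2 was 1.57 to 2.2 times Gkn1 and Tff1 3.18 to 4.03 times Gkn1 in the 6 libraries, whereas Muc5ac ran from 0.0456 to 0.0976 times Gkn1, a 2.14-fold range.

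The neck genes varied the most. Tff2, the trefoil peptide of the gland mucus, was at 2983, 5539 and 2763 FPKM in estrus and at 4640, 24876 and 11927 FPKM in diestrus. Muc6, the mucin of the gland neck, was at 426, 1131 and 120 FPKM in estrus and at 876, 4184 and 2359 FPKM in diestrus. Diestrus replicate 2 was the highest for both, estrus replicate 3 the lowest for both, and the phases overlapped only through estrus replicate 2 and diestrus replicate 1. Tff2 was 4.9 to 7.0 times Muc6 in 5 libraries and 23.1 times in estrus replicate 3. Gkn3, a gastrokine that is no member and is listed with the neck genes, was at 236, 298 and 47.7 FPKM in estrus. In diestrus it was at 468, 2453 and 1045 FPKM. Its phases did not overlap, nor did those of 13.7% of all genes tested in stomach.

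Pgc was at 50021, 115889 and 15914 FPKM in estrus and at 51017, 50110 and 44337 FPKM in diestrus. The 3 diestrus libraries and estrus replicate 1 lay close together, with estrus replicate 2 above and estrus replicate 3 below them. Other chief cell genes were also lowest in estrus replicate 3. Chia1, an acidic chitinase, was at 1528, 2423 and 48.1 FPKM in estrus and at 3158, 2997 and 1200 FPKM in diestrus. Cblif, the vitamin B12 binding intrinsic factor, was at 471, 806 and 35.0 FPKM in estrus and at 750, 626 and 352 FPKM in diestrus.

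The parietal genes moved together. Atp4a was at 1004, 2058 and 371 FPKM in estrus and at 1174, 1035 and 1626 FPKM in diestrus. Atp4b was at 2384, 4520 and 791 FPKM in estrus and at 2647, 2322 and 2848 FPKM in diestrus. Both were highest in estrus replicate 2 and lowest in estrus replicate 3, and Atp4b was 1.75 to 2.37 times Atp4a, so the subunits kept their proportion while the level changed 5.55-fold and 5.71-fold. Clic6, a chloride channel protein of parietal cells, was at 132, 252 and 47.3 FPKM in estrus and at 176, 173 and 221 FPKM in diestrus.

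**Figure D2:**
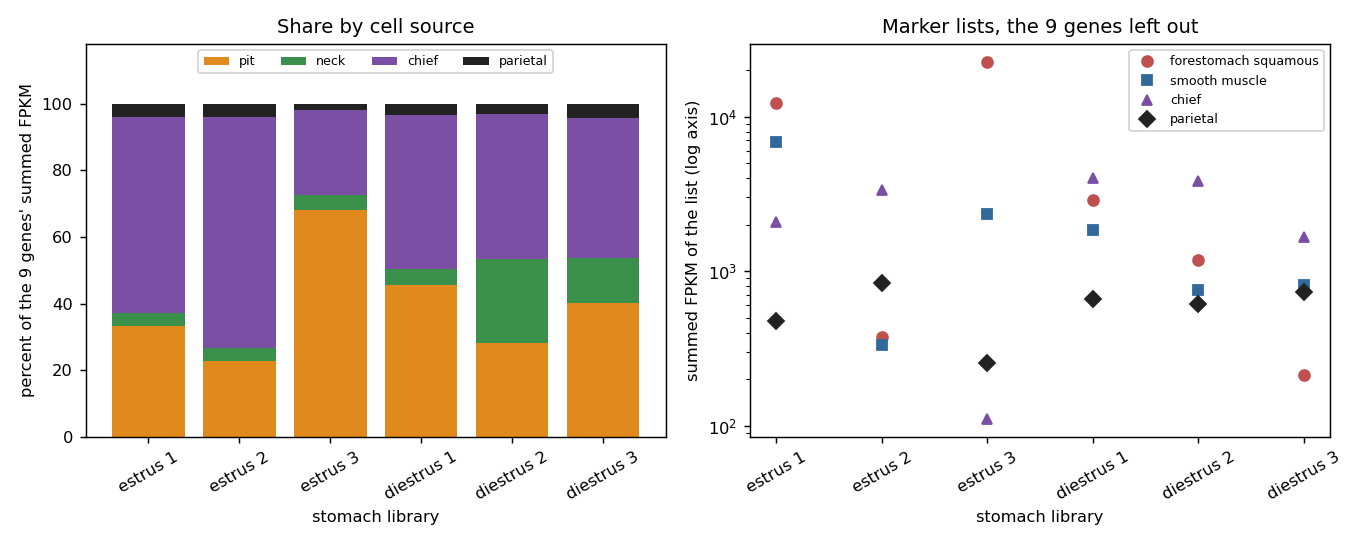
Left, stacked bars with the percent of the summed FPKM of the 9 genes by cell source in each stomach library. Right, summed FPKM on a log axis of marker lists without the 9 genes; in estrus replicate 3 the pit share is 68%, the squamous sum is the highest at 22580 FPKM, and the chief and parietal sums are the lowest at 111 and 255 FPKM.

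Seen as shares of the summed FPKM of the 9 genes, pit genes held 39.6% ± 16.2 (SD, n = 6), neck genes 9.42% ± 8.64, the chief gene 47.6% ± 15.1 and parietal genes 3.40% ± 0.886. The pit share ran from 22.6% in estrus replicate 2 to 68% in estrus replicate 3, and the neck share from 4% in estrus replicates 1 and 2 to 25.4% in diestrus replicate 2. The library with the largest pit share, estrus replicate 3, was also the highest in squamous genes: Krtdap, a product of differentiating keratinocytes, was at 4900, 108 and 11170 FPKM in estrus and at 1395, 493 and 0.41 FPKM in diestrus. Krt13 and Lor, a keratin and a cornified envelope protein of squamous epithelium, were also highest there, at 3256 and 1977 FPKM. The other libraries did not keep this order. Estrus replicate 1, next in the squamous sum, had a pit share of 33.3%, below 45.5% and 40.2% in diestrus replicates 1 and 3. Smooth muscle genes peaked instead in estrus replicate 1, where Tagln, Actg2 and Acta2 were at 1508, 1566 and 1595 FPKM. How far the makeup of the piece of tissue set the levels of the 9 genes was not tested.

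Related genes of the same families showed how restricted the members were, again as a description. Of the trefoil factors, Tff3 was at 0.14 to 1.23 FPKM in stomach and at a mean of 1110 FPKM in duodenum, where it is a goblet cell product. Of the gel-forming mucins, Muc2 was at 0.18 to 0.48 FPKM in stomach and at a mean of 90.2 FPKM in duodenum, and Muc5b stayed at 0.77 FPKM or below in stomach. Muc19 was not matched in the table. Of the aspartic proteases, Ctse, an intracellular protease of the gastric surface, was at 591 to 1042 FPKM in stomach, with spleen next outside the gut at a mean of 64.5 FPKM. Pga5, another pepsinogen, was at 27.0 to 202 FPKM and Cym, chymosin, at 0.05 to 2.67 FPKM in stomach. Ctsd, the lysosomal protease, was present in every tissue at means of 109 to 1711 FPKM, and Ren1, renin, was highest in kidney at a mean of 84.9 FPKM.

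The pump subunits showed the same contrast. Atp4a was at a mean of 1211 FPKM ± 578 (SD, n = 6) in stomach, while Atp12a, the catalytic subunit of the non-gastric proton pump, was at 0.06 FPKM or below in every stomach library. Atp4b, at 2585 FPKM ± 1195, stood above the beta subunits Atp1b1 at 286, Atp1b3 at 88.6 and Atp1b2 at 4.4 FPKM. Atp1b1 was highest in kidney, at a mean of 1369 FPKM.

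**Figure D3:**
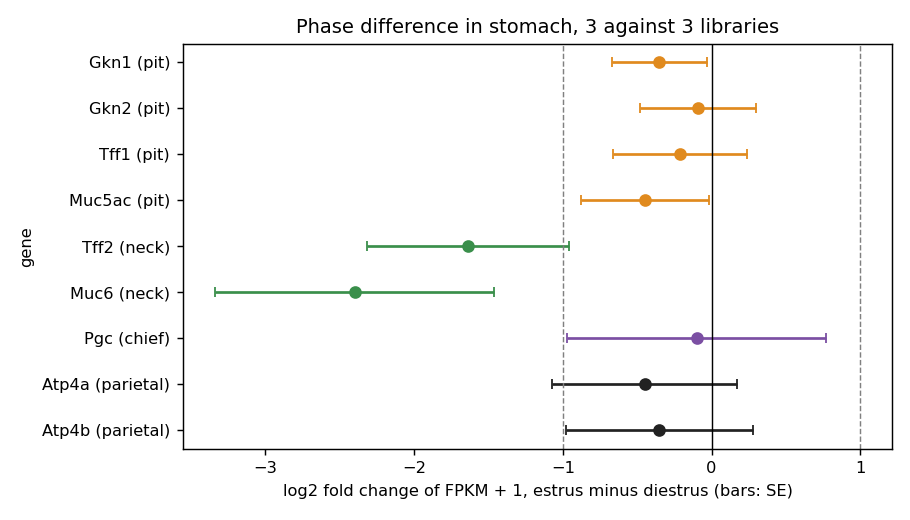
log2 fold change of FPKM + 1, estrus minus diestrus, in stomach with its SE for each of the 9 genes (3 against 3 libraries; dashed lines mark a log2 fold change of 1). All 9 estimates lie below 0, those of the neck genes are the lowest at -1.64 and -2.40, and none passed the test.

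Estrus was compared with diestrus in stomach to ask whether the gastric products follow the cycle. None of the 9 genes was called by limma (a Benjamini-Hochberg adjusted p no higher than 0.05 together with a log2 difference no smaller than 1), and 0% of the 12670 genes tested were called. At an unadjusted p under 0.05 limma gave 935 genes, 1 of them a member. The neck genes had the largest estimates: Muc6 was at 559 ± 519 FPKM in estrus and 2473 ± 1657 in diestrus (SD, n = 3), and its log2 fold change was -2.40 (SE 0.94, limma adjusted p = 0.672). Tff2 was at 3762 ± 1543 FPKM in estrus and 13814 ± 10249 in diestrus, with -1.64 on the same scale (SE 0.68, adjusted p = 0.672). Gkn3 had -2.82 (SE 0.88, adjusted p = 0.671), and Spdef, a transcription factor of mucous cells, -2.08 (SE 0.59, adjusted p = 0.671). Fold changes are on the log2(FPKM + 1) scale.

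The other 7 members lay between -0.45 and -0.09. Gkn1 had -0.35 (SE 0.32), Gkn2 -0.09 (SE 0.39), Tff1 -0.21 (SE 0.45) and Muc5ac -0.45 (SE 0.43). Pgc had -0.10 (SE 0.87), Atp4a -0.45 (SE 0.62) and Atp4b -0.35 (SE 0.63), and the adjusted p of these 7 genes was 0.714 to 0.973. All 9 estimates were below 0, with a median of -0.35, beside a median of -0.02 and 52.5% below 0 over all genes tested. Without estrus replicate 3, Pgc, Atp4a and Atp4b turned to 0.65, 0.20 and 0.34, and without estrus or diestrus replicate 1 Gkn2 turned to 0.14 or 0.04. The phases did not overlap for 0 of the 9 genes and for 13.7% of all genes tested.

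The other genes of each cell source were as little separated by the test. Of 10 further pit genes, all tested, 0 were called and 7 had estimates below 0, with a median of -0.40. The most abundant, Psca, a surface antigen of pit cells, was at 6046 ± 1262 FPKM in estrus and 5929 ± 1023 in diestrus (SD, n = 3). Of 5 further neck genes 0 were called and 4 were below 0, with a median of -2.12. Of 5 further chief genes, 4 were tested, 0 were called and 4 were below 0, with a median of -1.20. Of 13 further parietal genes 0 were called and 13 were below 0, with a median of -0.41. Of 5 gastric endocrine genes, 4 were tested, 0 were called and 4 were below 0; the hormone genes Ghrl, ghrelin, and Sst, somatostatin, were at means of 603 and 176 FPKM in estrus and 813 and 224 FPKM in diestrus. Of 12 squamous genes 0 were called and 12 were above 0, with a median of 2.97, and these are the genes that stood highest in estrus replicates 1 and 3. Of 7 smooth muscle genes 0 were called and 7 were above 0, with a median of 0.69. Of 9 gastric transcription factors tested 0 were called and 5 were below 0; Klf4 and Gata4 had 0.23 (SE 0.25) and -0.29 (SE 0.21). Of 5 proliferation genes, led by Ccna2, Top2a and Mki67, 0 were called and 4 were below 0, with a median of -0.14.

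**Figure D4:**
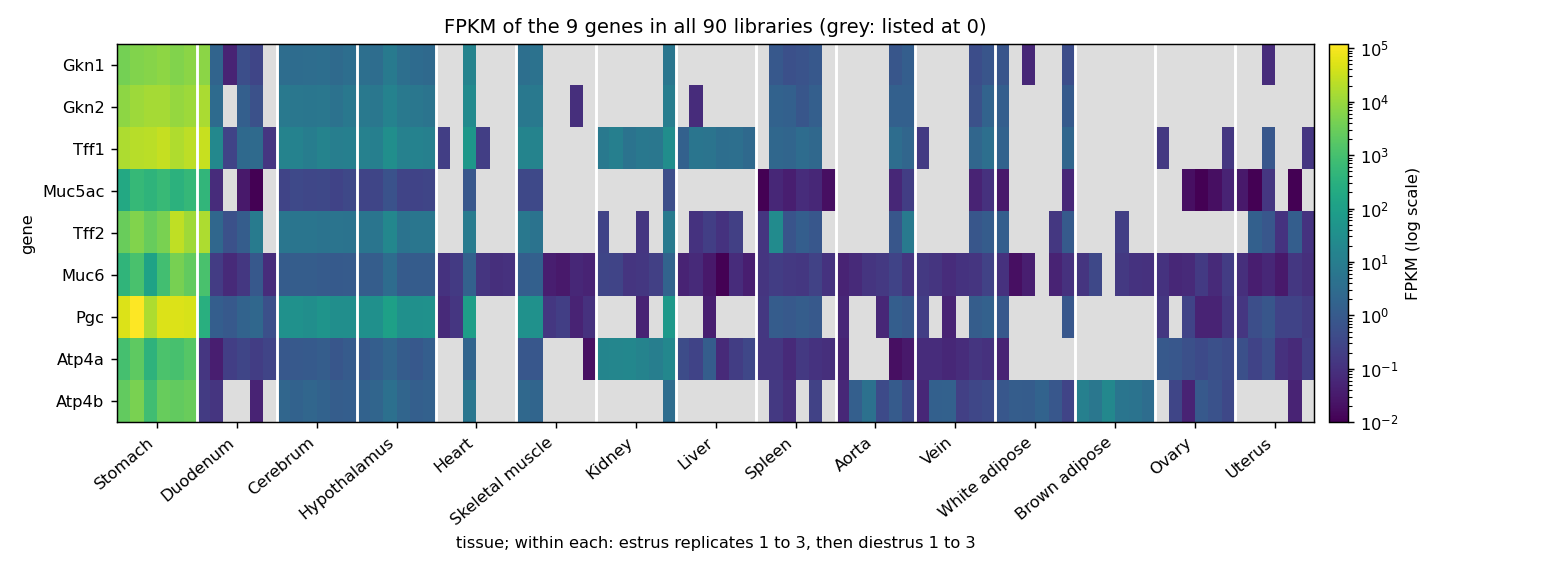
FPKM of the 9 genes, on a log colour scale with grey for values listed at 0, in all 90 libraries ordered by tissue, phase and replicate. Besides stomach, duodenum estrus replicate 1 reaches stomach levels for the pit and neck members. Cerebrum and hypothalamus hold all 9 genes in every library. Heart estrus replicate 3, skeletal muscle estrus replicates 1 and 2 and kidney diestrus replicate 3 hold all 9 too. With some duodenum, spleen, aorta, vein and white adipose tissue libraries, all 9 are above 0 in 27 of the 84 libraries outside stomach.

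In duodenum, 1 library of 6 decided the level of 7 of the 9 genes. Duodenum estrus replicate 1 listed Tff1 at 29618, Tff2 at 16401, Gkn2 at 15012, Gkn1 at 7108, Muc6 at 1142, Muc5ac at 453 and Pgc at 287 FPKM. In the other 5 duodenum libraries Tff1 was at 0.13 to 20.7 FPKM, Tff2 at 0 to 8.62, Gkn2 at 0 to 2.96, Gkn1 at 0 to 1.92, Muc6 at 0.07 to 0.87, Muc5ac at 0 to 0.08 and Pgc at 0.53 to 2.34 FPKM. The proton pump was near 0 in all 6, with Atp4a at 0.04 to 0.30 FPKM and Atp4b at 0 to 0.17 FPKM. In estrus replicate 1 Gkn2 was 2.11 times and Tff1 4.17 times Gkn1, beside 1.57 to 2.2 and 3.18 to 4.03 times in stomach. Muc1 and Psca, pit genes outside the members picked after their values were seen, were at 61.3 and 3447 FPKM, below their lowest stomach values of 302 and 4931 FPKM. Pgc was 0.00968 times Tff1 there and 0.711 to 5.63 times Tff1 in stomach.

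Other genes set this library apart as well. Gkn3 was at 4545 FPKM, against 1.40 to 14.2 FPKM in the other 5 duodenum libraries, and Chia1 and Cblif were at 0 and 0.92 FPKM. Gast, the gastrin gene of the antrum, was at 29.6 FPKM against 0 in the other 5 and 0 to 1.34 FPKM in stomach. Barx1, a homeobox gene of stomach mesenchyme, was at 21.6 FPKM against 0 in the other 5. Both were picked from the lists after their values were seen, and their lists were mixed. Of the other gastric endocrine genes, Sst and Chga were lowest in this library, at 16.6 and 7.43 FPKM. Ghrl and Hdc lay inside the range of the other 5. Of the other gastric transcription factors, Sox2, Foxq1, Spdef and Klf4 were highest in this library and Gata6 and Hnf4g lowest. Gata4, Pdx1 and Esrrg lay between. Most enterocyte genes were low but present, with Apoa1, Apoa4 and Fabp1 at 2450, 912 and 1325 FPKM. Their lowest values in the other 5 were 4015, 2358 and 2660 FPKM. Fabp2, Lct and Vil1 were also lowest in this library, whereas Alpi, at 1217 FPKM, lay inside the range of the other 5. Goblet genes gave Tff3 at 391 against 795 to 1454 FPKM, Clca1 at 525 against 161 to 440 FPKM and Spink4 at 165 against at least 181 FPKM. Paneth genes were low, Defa17, Lyz1 and Defa24 being at 27.9, 116 and 23.4 FPKM, though estrus replicate 2 was also low at 88.4, 99.5 and 75.2 FPKM. The acinar genes Cela1, Amy2a5 and Ctrb1 were at 27.3, 23.4 and 16.1 FPKM, against at most 5.35, 1.12 and 3.28 FPKM. The smooth muscle sum was 2534 FPKM against 245 to 645 FPKM. The source of these levels was not tested. By limma, 0 genes of the enterocyte, goblet, Paneth and acinar lists were called between the phases in duodenum, of 7, 5, 5 and 4 tested.

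The members were chosen with their duodenum levels in view, so their estimates in duodenum and in the difference between tissues are a description. Across phases, 7 of the 9 members passed the filter on low values in duodenum, Gkn1, Gkn2, Muc5ac and Muc6 only through estrus replicate 1. Of these 7 members 0 were called, as were 0% of the 12410 genes tested. Their adjusted p by limma was 0.474 to 0.579, and at an unadjusted p under 0.05 there were 1677 genes and 0 members. Tff1 had the largest estimate, with 9880 ± 17094 FPKM in estrus and 1.87 ± 1.52 in diestrus (SD, n = 3), or 5.22 as the log2 fold change (SE 3.36, adjusted p = 0.474). Without estrus replicate 1, 4 of the 7 failed the filter, and the log2 fold change was 1.06 for Tff1, -0.31 for Tff2 and -0.21 for Pgc. Without estrus replicate 1 the mean of Tff1 over duodenum fell from 4941 to 5.32 FPKM and that of Tff2 from 2736 to 2.54 FPKM. The phases did not overlap for 0 of the 7 members and for 26.6% of all genes tested. The difference between the stomach and duodenum phase effects was called for 0 of the 9 members and for 0.0077% of the 12990 genes tested, with adjusted p of 0.488 to 0.848 for the members. That fit has no term for the mouse, although per the study's methods both tissues were dissected from each mouse. Blocking on the replicate numbers left 0 genes past the threshold.

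**Figure D5:**
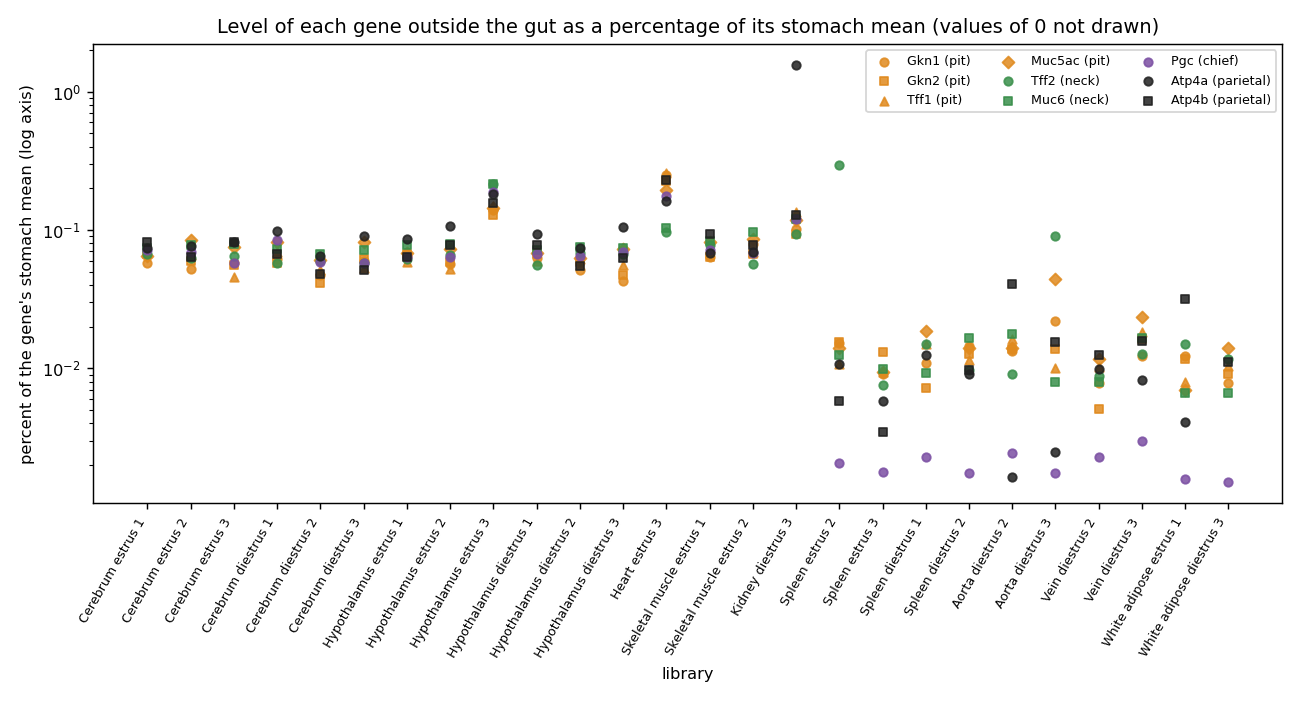
Level of each of the 9 genes as a percentage of its own stomach mean, on a log axis, in the 26 libraries outside stomach and duodenum that listed both Gkn1 and Gkn2 above 0. In cerebrum and hypothalamus the 9 percentages lie within 1.42 to 2.46 times of each other in each library, whereas in spleen, aorta, vein and white adipose tissue Pgc lies below the pit genes.

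Outside stomach and duodenum, cerebrum and hypothalamus were the tissues with all 9 genes in every library. Pgc was at 39.1, 37.7 and 31.8 FPKM in cerebrum in estrus and at 46.3, 31.9 and 31.4 FPKM in diestrus. In hypothalamus it was at 34.9, 35.0 and 103 FPKM in estrus and at 36.8, 35.1 and 37.9 FPKM in diestrus. Hypothalamus estrus replicate 3 stood above the other 11, which lay close together. Tff1 was at 9.93 to 14.9 FPKM in cerebrum and at 11.2 to 13.4 FPKM in 5 hypothalamus libraries, with 31.8 FPKM in estrus replicate 3. Gkn1, at 2.55 to 3.89 FPKM in the same 11 libraries, was at 8.32 FPKM in that one. The lowest Gkn1 value in cerebrum, 2.84 FPKM, was 56.8 times the smallest value above 0 listed for the gene in any library.

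Relative to stomach, the 9 genes were present in nearly the same proportion. In the 11 libraries without hypothalamus estrus replicate 3, Gkn1 was at 0.0425% to 0.0649% of its stomach mean, Tff2 at 0.0556% to 0.0679%, Muc6 at 0.0673% to 0.0792%, Pgc at 0.0575% to 0.0849%, Atp4a at 0.0652% to 0.107% and Atp4b at 0.0483% to 0.0824%. In hypothalamus estrus replicate 3 the 9 genes were at 0.129% to 0.216%. Pgc was 2.63 to 3.23 times Tff1 in the 12 libraries, inside the range of 0.711 to 5.63 seen in the stomach libraries. Further stomach genes were there too, as Psca at 3.00 to 9.37 FPKM and Chia1 at 1.35 to 5.01 FPKM. Not all of them kept the proportion of the members. Gkn3 was 1.57 to 4.89 times Muc6 in these 12 libraries and 0.263 to 0.586 times Muc6 in stomach. Gkn3 was also listed where the members were near 0. Its mean was 23.7 FPKM in vein and 7.96 FPKM in aorta, above 3.54 FPKM in cerebrum. Muc6 had means of 0.138 and 0.13 FPKM in vein and aorta. Whether the brain level of Gkn3 belonged with the traces of the members was not tested. Ghrl was at 1.11 to 3.15 FPKM in the 12 brain libraries, beside a stomach mean of 708 FPKM. Myh4, the myosin of fast muscle fibres, was at 1.47 to 2.34 FPKM in these 12 libraries, while Fabp2 of enterocytes was at 0.07 FPKM or below. Myh4 was also at 1.67 to 2.51 FPKM in 5 stomach libraries and at 0 in stomach estrus replicate 3. It reached like levels where Gkn2 was listed at 0, at 2.37 to 2.75 FPKM in 4 ovary libraries, 1.84 to 2.12 FPKM in 4 uterus libraries and 2.29 to 3.06 FPKM in 3 white adipose tissue libraries. The source of these traces was not tested.

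In heart, skeletal muscle and kidney all 9 genes were above 0 together in 1, 2 and 1 of the 6 libraries. Heart estrus replicate 3 listed Pgc at 95.9, Tff1 at 55.6, Gkn2 at 24.8, Gkn1 at 15.0, Tff2 at 8.55, Atp4b at 5.90 and Atp4a at 1.96 FPKM. In the other 5 heart libraries Pgc was at 0 to 0.13 FPKM, Tff1 at 0 to 0.20 FPKM, and Gkn1, Gkn2, Tff2, Atp4a and Atp4b were listed at 0. Kidney diestrus replicate 3 listed Pgc at 65.2 FPKM, with at most 0.05 in the other 5, and Gkn1 and Gkn2 at 6.09 and 10.3 FPKM, with 0 in the other 5. Skeletal muscle estrus replicates 1 and 2 listed Pgc at 38.8 and 36.9 FPKM, with at most 0.21 in the other 4, and Tff1 at 16.1 and 15.0 FPKM, with 0 in the other 4. These 4 libraries held all 9 genes, and Pgc was 1.72 to 2.47 times Tff1 in them.

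The proportions again followed stomach. In skeletal muscle estrus replicate 1 the 9 genes were at 0.0636% to 0.0936% of their stomach means and in estrus replicate 2 at 0.0566% to 0.0963%. In heart estrus replicate 3 they were at 0.0973% to 0.258%, with the neck genes Tff2 and Muc6 lowest at 0.0973% and 0.104%. In kidney diestrus replicate 3, 8 genes were at 0.0941% to 0.134% and Atp4a, a gene that kidney lists in every library, was at 1.56%. Snap25, a neuronal synapse gene, was at 3.05 FPKM in kidney diestrus replicate 3 and at 0 to 0.16 in the other kidney libraries. It was at 2.67 and 3.37 FPKM in skeletal muscle estrus replicates 1 and 2, but also at 4.72 FPKM in diestrus replicate 2, where Gkn1, Tff1 and Tff2 were at 0, and it was at 0 in all 6 heart libraries. Myh4 was at 2.05 FPKM in kidney diestrus replicate 3 and 0 in the other 5.

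A fainter set of traces differed in its proportions. In 10 libraries, 4 of spleen and 2 each of aorta, vein and white adipose tissue, Gkn1 was at 0.47 to 1.31 FPKM and Gkn2 at 0.56 to 1.80 FPKM. In the other 14 libraries of these tissues Gkn1 was at 0.06 FPKM or below and Gkn2 at 0. All 9 genes were above 0 in 3 spleen, 2 aorta, 2 vein and 1 white adipose tissue libraries. Pgc was 0.368 to 0.561 times Tff1 in the 10 libraries, below every stomach and brain library and above duodenum estrus replicate 1. Tff1 was at 0.00803% to 0.0182% of its stomach mean and Pgc at 0.0015% to 0.00299%. Fabp2 was at 0.70 to 1.49 FPKM in them, and at 0 to 9.78 FPKM in the other 14. Spleen estrus replicate 2 alone had Tff2 at 26.1 FPKM, or 0.297% of its stomach mean, with 1.33 FPKM as the next highest spleen value.

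Over the 126 pairs of a member and a tissue outside stomach, 27 were constant traces, with all 6 libraries above 0 and the highest under 5 times the lowest, and 20 were single-library traces, with a highest value of at least 1 FPKM and 10 times the next. Cerebrum and hypothalamus gave 18 of the constant traces. The single-library traces were 7 in duodenum estrus replicate 1, 7 in heart estrus replicate 3, 5 in kidney diestrus replicate 3 and Tff2 in spleen estrus replicate 2. In liver, ovary, uterus and BAT, 0 libraries listed both Gkn1 and Gkn2 above 0.

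Some members were present in a tissue without the others. Atp4a was at 16.9, 17.3 and 19.3 FPKM in kidney in estrus and at 14.9, 10.6 and 18.9 FPKM in diestrus, and its partner Atp4b was at 0 in 5 of these 6 libraries and at 3.32 FPKM in diestrus replicate 3. Kidney was next to stomach in the order of Atp4a levels, and its lowest library lay above the highest of every other tissue but stomach. Atp4a was also at 0.39 to 0.93 FPKM in ovary, where Atp4b was at 0 to 0.95 FPKM. Tff1 was at 5 to 11.4 FPKM in 5 kidney libraries and at 28.8 FPKM in diestrus replicate 3, and at 1.62 to 5.59 FPKM in liver, while Gkn1 was at 0 in all liver libraries and in those 5 kidney libraries.

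Atp4b took the reverse course in BAT. It was at 11.8, 6.44 and 20.5 FPKM in BAT in estrus and at 5.63, 5.01 and 3.36 FPKM in diestrus, and Atp4a was at 0 in all 6. The highest value came from estrus replicate 3, the library with 12048 genes at 0, and the mean of 8.79 FPKM ± 6.42 (SD, n = 6) was 6.45 FPKM ± 3.20 (n = 5) without it. Atp4b was at 0.06 to 4.31 FPKM in aorta, 0.06 to 1.62 FPKM in vein and 0.29 to 1.75 FPKM in white adipose tissue. Atp4a was at 0 to 0.05 FPKM in aorta and white adipose tissue. In vein Atp4a was at 0.06 to 0.12 FPKM, a range that overlapped that of Atp4b. The order of Atp4b was stomach, BAT, hypothalamus and cerebrum by mean, and from BAT on each tissue overlapped the next. Muc6 was above 0 in 82 of the 84 libraries outside stomach, at 0.34 FPKM or below in liver, ovary, uterus, spleen, aorta, vein and both adipose tissues. Muc5ac reached 1 FPKM in only 1 library outside stomach, duodenum estrus replicate 1.

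By mean, stomach was first for all 9 genes. The lowest stomach library exceeded the highest library outside stomach and duodenum by 19.3 times for Atp4a, 36.4 times for Muc6, 38.5 times for Atp4b and 106 to 307 times for the other 6. Duodenum was next by mean for the 7 genes other than the pump subunits, but through estrus replicate 1 alone: without it the duodenum means of these 7 were 0.024 to 5.32 FPKM, each below hypothalamus and cerebrum. The overlap of duodenum with stomach for the pit and neck genes also came from that library. Hypothalamus and cerebrum followed in that order by mean and overlapped each other for all 9 genes. Hypothalamus estrus replicate 3 was the highest hypothalamus library for all 9. By median, cerebrum was above hypothalamus for Tff1, at 12.8 and 12.7 FPKM, and for Muc5ac, at 0.335 and 0.3 FPKM.

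The genes whose levels over the 15 tissues were most like the 9, by mean Pearson's r of log2(FPKM + 1) to them among 6203 other genes with a stomach mean of at least 10 FPKM, were Ern2 and Ghrl at 0.917, Gsdma2 at 0.915, Anxa10 at 0.913 and Teddm3 at 0.912. Ern2 is a stress sensor of the endoplasmic reticulum in mucus-secreting epithelia, Ghrl encodes ghrelin and Anxa10 is an annexin of the gastric surface. The tissues share libraries between these genes, so the r is a measure of likeness only. Within the 6 stomach libraries, the genes nearest to each member by Pearson's r were Slc6a20a and Dsg2 for Gkn1, Lpcat4 and Rhof for Gkn2, Xrcc6 and Papss2 for Tff1, and Thyn1 and Entrez gene 108167809 for Muc5ac. They were Cgref1 and Ufm1 for Tff2, Tm9sf1 and Galnt6 for Muc6, and Slc25a39 and Mecr for Pgc. For Atp4a they were Hspa9 and Kcnj16, and for Atp4b Tbc1d9 and Slc16a7. The r of all these genes was 0.966 to 0.999 over 6 libraries. As they were picked for the highest r among many genes over few libraries, the r ranks them and tests nothing. Some hardly varied, as Xrcc6 at 9.64 to 11.6 FPKM. Galnt6, an enzyme that starts mucin glycans, ran from 8.67 to 73.3 FPKM, and Kcnj16, a potassium channel subunit on the list of parietal genes, from 18.2 to 76.5 FPKM.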

How the data were processed

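The series holds RNA-sequencing libraries of 15 mouse tissues, 3 per tissue in each of estrus and diestrus. Per the study's methods, the authors filtered BGISEQ-500 reads with SOAPnuke; the submitters' processing notes name Bowtie2 2.2.5, RSEM 1.2.8 and GRCm38.p5. The authors deposited FPKM to 2 decimals, without counts, so reads behind a value are unknown and no count test such as their DEGSeq was run. Entrez IDs were named from RefSeq (GRCm38.p6).

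The phases were compared with limma 3.58.1 (R 4.3.3, intensity trend, no covariates) on log2(FPKM + 1), leaving out genes averaging under 1 FPKM in the tissue. P-values were Benjamini-Hochberg adjusted over all genes tested; a call needed 0.05 or less and a log2 difference of 1 or more. The fit was tested on simulated data. Alternatives covered the pseudocount, filter, scaling, trend, a fit of all 90 libraries, a replicate block and each library left out. Figures and descriptions used Python 3.11.15 with pandas 2.3.3.

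The members and gene lists were chosen with earlier results of these data known. Named were the 9 members, their families (some genes of which are not reported here), the 3 most abundant genes of each list, and the genes most like the members; Gkn3, Gast, Barx1, Spdef, Kcnj16, Psca and the tissue markers Snap25, Myh4 and Fabp2 were named from the lists where a result turned on them.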

Additional observations from a re-analysis of the deposited data

How the results depend on the processing

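No member was called in stomach under any alternative, and 112 of 117 alternative estimates of the 9 genes kept their sign. The reversals came from leaving out a library, over which Pgc ran from -0.78 to 0.65, Atp4a from -1.04 to 0.20 and Atp4b from -0.92 to 0.34, each highest without estrus replicate 3, and Gkn2 from -0.28 to 0.14. In duodenum, the fit of all 90 libraries called 543 of the 12410 genes tested, with 6 of the 7 members tested among them. These 6 members were high in estrus replicate 1 alone and were chosen with that level in view, so their calls lend no support. Of the 7 members, 4 passed the filter only through estrus replicate 1. Over the libraries left out Tff2 ran from -0.31 to 6.37 and Pgc from -0.21 to 3.40, both lowest without estrus replicate 1. Genes called were 376 in stomach and 543 in duodenum in the fit of all 90 libraries, against 0 with each tissue fitted alone. Leaving out a library gave 0 to 1 in stomach, with 1 without estrus or diestrus replicate 3, and 0 to 10 in duodenum, with 10 without estrus replicate 1 and 1 without estrus or diestrus replicate 3. For the difference between both tissues, with 1 gene called, scaling to the 75th percentile gave 2, the replicate block 0, and leaving out a library 0 to 140. The highest was without stomach estrus replicate 2, 8 and 10 were called without duodenum estrus replicates 1 and 3, and 0 without duodenum replicate 2 of either phase or stomach estrus 1, estrus 3 or diestrus 1. The numbers did not pair the libraries: deviations of same-numbered estrus and diestrus libraries correlated at 0.475, -0.0522 and -0.517 in stomach and at 0.0628, -0.0346 and 0.0627 in duodenum. With the replicate block 0 genes were called in stomach and 0 in duodenum. Spearman's rho shared 2 of the 5 genes most like the members. Means without duodenum estrus replicate 1 or BAT estrus replicate 3 were added after the data were seen. Without counts, the reads behind a low trace are unknown, and a value listed at 0 does not show absence. The cause of the changes between fits was not tested.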
